A study of Oryza sativa with 12 samples.

Results

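The 487 regions described here are stretches of rice chromatin in which H2A.Z peaks were shorter in the oschz1 mutant than in the unmutated rice. They were chosen from the peaks of the 4 H2A.Z libraries. Peaks that overlapped by at least 1 bp were merged into 53148 regions, of which 38211 held a peak of every library. A region was kept when the larger covered length of the 2 oschz1 libraries lay below the smaller covered length of the 2 NIP libraries by 400 bp or more. The covered length is the number of bases that a library's own peaks cover, and the distance between those 2 lengths is called the margin. The 487 regions were 1.27% of the 38211. Covered length, position of the loss, H2A.Z reads and enrichment come from the values that chose the regions and are given as a description; the 1 count of calls among them is not read as a result. The H3 libraries were not used in the choice.

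OsChz1 is a histone chaperone that binds H2A-H2B and H2A.Z-H2B dimers, and the study asked whether chromatin carries less H2A.Z without it. The mutant group, oschz1, carries a CRISPR/Cas9 deletion of 1 base in OsChz1 that brings an early stop codon, and the study used 1 mutant line, oschz1-1, for chromatin immunoprecipitation. The other group, NIP, is the unmutated japonica cultivar Nipponbare. Both groups were 30-day-old seedlings from long-day growth chambers with no further treatment; seedlings were pooled for each chromatin preparation. Each genotype has 2 H2A.Z, 2 H3 and 2 input libraries, 12 samples in all. The study calls the replicates biological, but the labels do not say whether they came from separate plantings, so the p-values cover the spread between these libraries only. Reads in peaks numbered 20072324 and 18569241 in the oschz1 H2A.Z libraries and 22192417 and 16886473 in the NIP ones. For H3 they numbered 14466571 and 9179714 in oschz1 and 13961812 and 9985812 in NIP. Peak tables of this kind cannot show the deletion, so the genotype labels were not checked. In whole seedlings, fewer cells with H2A.Z on a base and less H2A.Z per cell cannot be told apart.

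H2A.Z is a variant of the core histone H2A that replaces it in a minority of nucleosomes. Chromatin remodellers of the SWR1 type exchange it in as a dimer with H2B, and chaperones such as Chz1 of yeast hand over that dimer. In plants H2A.Z is best known at the first nucleosomes after a transcription start site, where it forms a narrow domain, and in the bodies of genes that respond to the environment, where the domain is wide. A peak edge in these data is the last window of 200 bp that the peak caller still found enriched over input. The genes at the positions given below were not analysed here.

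Shortening was the less frequent direction. The opposite pattern, with both oschz1 libraries covering at least 400 bp more than both NIP libraries, was found in 1646 regions (4.31%), called extended regions here. Among the shortened regions the margin was exactly 400 bp in 322, 600 bp in 109, 800 bp in 42 and 1000 bp in 8 regions. It was 1200 bp in 4 regions and 1600 bp in 2, and no shortened region went beyond that. Among the extended regions 26 had a margin of over 2000 bp. Just inside the threshold, the 322 regions with a margin of 400 bp had median covered lengths of 1400 and 1400 bp in the oschz1 libraries, against 2000 and 1900 bp in the NIP libraries. Just outside it were 1449 regions with a margin of 200 bp, with medians of 1000 and 1000 bp in oschz1 and 1400 and 1400 bp in NIP. The threshold thus separated regions that differed by 1 window of 200 bp from those that differed by 2 or more.

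**Figure D1:**
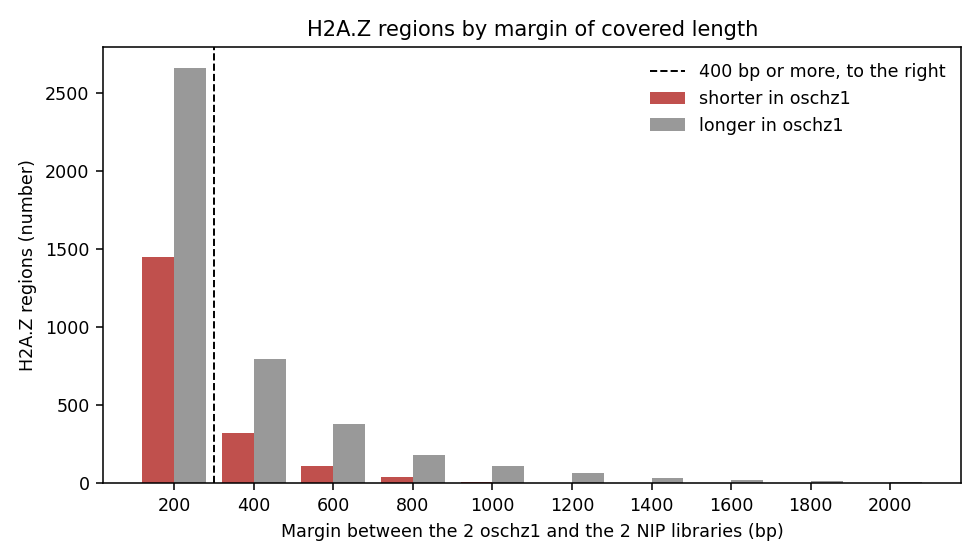
Number of H2A.Z regions (vertical axis) by the margin in bp between the covered lengths of the 2 oschz1 and the 2 NIP libraries (horizontal axis), for regions shorter in oschz1 and for regions longer in oschz1. From 200 to 2000 bp the bars for shorter regions stay below those for longer ones, 322 against 797 at 400 bp, and the shorter series ends at 1600 bp.

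Over the 487 regions, oschz1 libraries covered 855.6 and 849.4 kb and NIP libraries 1179.8 and 1171 kb. The median region was covered over 1200 and 1400 bp in the oschz1 libraries (200 to 10800 bp), against 2000 and 2000 bp in the NIP libraries (600 to 11600 bp). The margin was a median of 25.0% of the smaller NIP length, between 4.65% and 75.0%, and it made up 50% or more of that length in 62 regions. Both oschz1 libraries had equal covered lengths in 266 regions, both NIP libraries in 267, and each genotype within itself in 158. The rule favours regions whose replicates agree, and lengths come in steps of 200 bp. No share over all regions stands beside these counts, so they are a description only.

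The bases of a region were then sorted by who covered them. Lost bases were covered in both NIP libraries and in neither oschz1 library, and kept bases were covered in all 4. The shortened regions held 222.6 kb of lost and 764.6 kb of kept bases. A lost stretch outside everything that oschz1 covered was an edge loss, and one between bases that oschz1 covered was an internal gap.

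Loss at one edge was the most frequent shape. It made up 299 of 487 regions, or 61.4%, and held 151.8 of the 222.6 kb. The loss lay on the left in 151 and on the right in 148 of them, left and right being read along the chromosome and not along a gene. Internal gaps alone came next with 102 regions (20.9%) and 41.8 kb. Loss at both edges was found in 36 regions (7.39%), with 18.2 kb, and a gap together with an edge in 18 (3.70%), with 10.8 kb. In the other 32 regions (6.57%) no base was lost in common, because the 2 oschz1 libraries or the 2 NIP libraries covered different parts. Counting bases that only 1 NIP library covered as lost too lowered the share with loss at one edge to 50.5%. At margins of 200 and 800 bp that share was 70.8% and 71.4%.

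**Figure D2:**
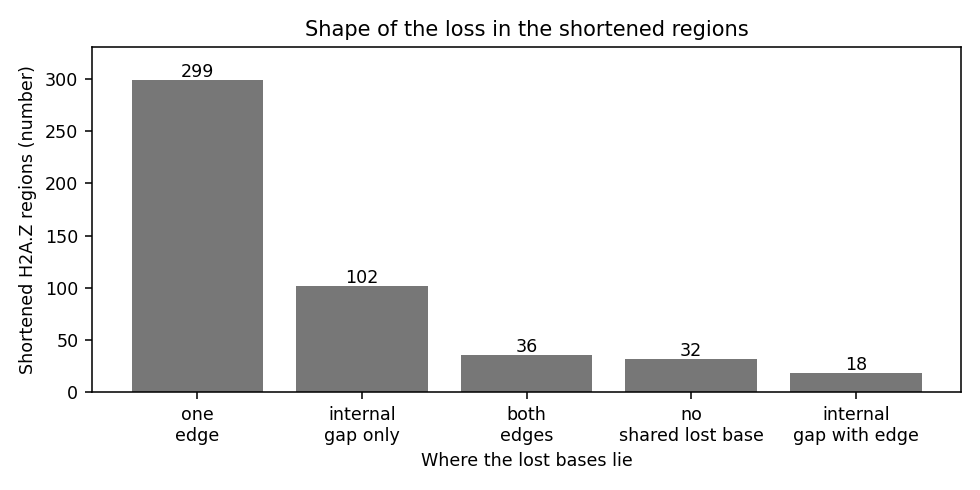
Number of shortened regions (vertical axis) by where the bases lost in oschz1 lie (horizontal axis), with the count above each bar. Loss at one edge, with 299 regions, stands above the sum of the other classes, and internal gaps alone follow with 102.

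Equal boundaries within a genotype are favoured by the rule as well, so the counts of them are a description only. Where one edge was lost, both oschz1 libraries ended at the same base in 214 of 299 regions (71.6%) and both NIP libraries in 191 (63.9%). In 144 regions both pairs did. The lost edge stretch measured 200 to 1600 bp with a median of 400 bp.

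A new internal gap split what was continuous in NIP. Of 120 regions with a gap, 5 had 2 gaps. The gap bases of a region, summed where there were 2 gaps, came to 200 to 1000 bp with a median of 400 bp. The caller joined windows up to 200 bp apart, so 400 bp was the shortest gap that 1 library alone could show. In 79 of the 120 (65.8%) each oschz1 library on its own held bases on both sides of a gap. In 38 only 1 oschz1 library did, and in 3 the sides came from different libraries. Over all 487 regions, the oschz1 libraries had more than 1 peak in 127 and 130 regions, against 52 and 46 in the NIP libraries.

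The largest single loss lay on chromosome 6, at chr6:26421801-26426000. Both oschz1 libraries covered 2600 bp and both NIP libraries 4200 bp, and all 4 ended on the same right edge. The left 1600 bp, up to position 26423400, were without a peak in oschz1. Reads are given in RPM, a library's reads scaled to a common total of reads in its peaks. RPM were 25.8 and 21.9 in oschz1, against 36.0 and 34.1 in NIP. The reads per kilobase that remained covered were similar, at 9.91 and 8.41 RPM per kb in oschz1 and 8.56 and 8.11 in NIP. The fold over input was low in every library, 1.43 and 1.44 in oschz1 and 1.48 and 1.29 in NIP. No H3 peak lay on the lost stretch in any of the 4 H3 libraries.

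A loss of the same margin lay at the right of chr2:4126801-4130200. The oschz1 libraries each had a peak of 1000 bp, chr2:4127001-4128000. In NIP, 1 library had 3 peaks with 2600 bp between them and the other had 1 peak of 2600 bp. RPM were 8.92 and 7.0 in oschz1 and 21.5 and 18.5 in NIP, a log2 difference of -1.33. Here H3 lay on the right end, without H2A.Z in oschz1. On the 1400 lost bases, H3 peaks covered 600 and 1000 bp in oschz1 and 1000 and 1000 bp in NIP.

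H3 likewise lay on the lost left edge of chr4:25245201-25249000. H2A.Z covered 1800 and 1800 bp in oschz1, against 3800 and 3000 bp in NIP, and the 1400 lost bases ended at position 25246600. H3 peaks covered 1000 and 1400 bp of them in oschz1 and 1400 and 1400 bp in NIP. The third region of this kind was chr2:28238801-28242200. There H2A.Z covered 2400 and 2400 bp in oschz1 and 3400 and 3400 bp in NIP, and H3 covered 1000 and 1000 bp of the lost right end in oschz1 and 1000 and 800 bp in NIP.

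The region chr6:25735201-25738200 had a margin of 1200 bp but no base that all 4 libraries shared. The oschz1 libraries had peaks of 800 and 1400 bp that did not overlap, and the NIP libraries had 1 peak each of 2800 and 2600 bp. Its gap of 400 bp therefore came from 1 library on each side. RPM were 7.72 and 10.0 in oschz1, against 20.5 and 19.2 in NIP, and no H3 peak lay in the region.

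Loss at both edges was widest at chr8:27518001-27522000. The oschz1 libraries covered 2600 and 2000 bp and the NIP libraries 3600 and 3600 bp. In NIP a separate peak of 800 bp stood at the left, with a fold over input of 1.57 and 2.47, and the oschz1 libraries had no separate peak there. The other such region, chr2:33393001-33396800, had 2200 and 1200 bp in oschz1 against 3200 and 3800 bp in NIP. The oschz1 libraries ended at positions 33395600 and 33394400 and the NIP libraries at 33396600 and 33396800. No H3 peak lay in that region.

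A gap of 1000 bp, the greatest gap length found, lay at chr5:18431001-18432000 within a region of 4200 bp. Both oschz1 libraries ended at position 18431000, and only 1 of them had a further peak of 200 bp behind the gap, with a fold over input of 1.48. The NIP libraries ran through with 1 peak each of 4000 and 4200 bp and a fold of 2.49 and 2.45. H3 peaks covered 2000 and 1000 bp of the region in oschz1 and 1600 and 600 bp in NIP, none of it in the gap.

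A gap joined with an edge loss in chr1:31310601-31314400 and in chr1:27490801-27493600. In the first, H2A.Z covered 2800 and 2800 bp in oschz1 and 3600 and 3600 bp in NIP. In the second it covered 1200 and 2000 bp in oschz1 and 2800 and 2800 bp in NIP. This second region had the highest density of the 10, at 36.5 and 26.0 RPM per kb in oschz1, against 22.0 and 23.0 in NIP. H3 covered 800 and 200 bp of its 800 lost bases in oschz1 and 0 and 0 bp in NIP.

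**Figure D3:**
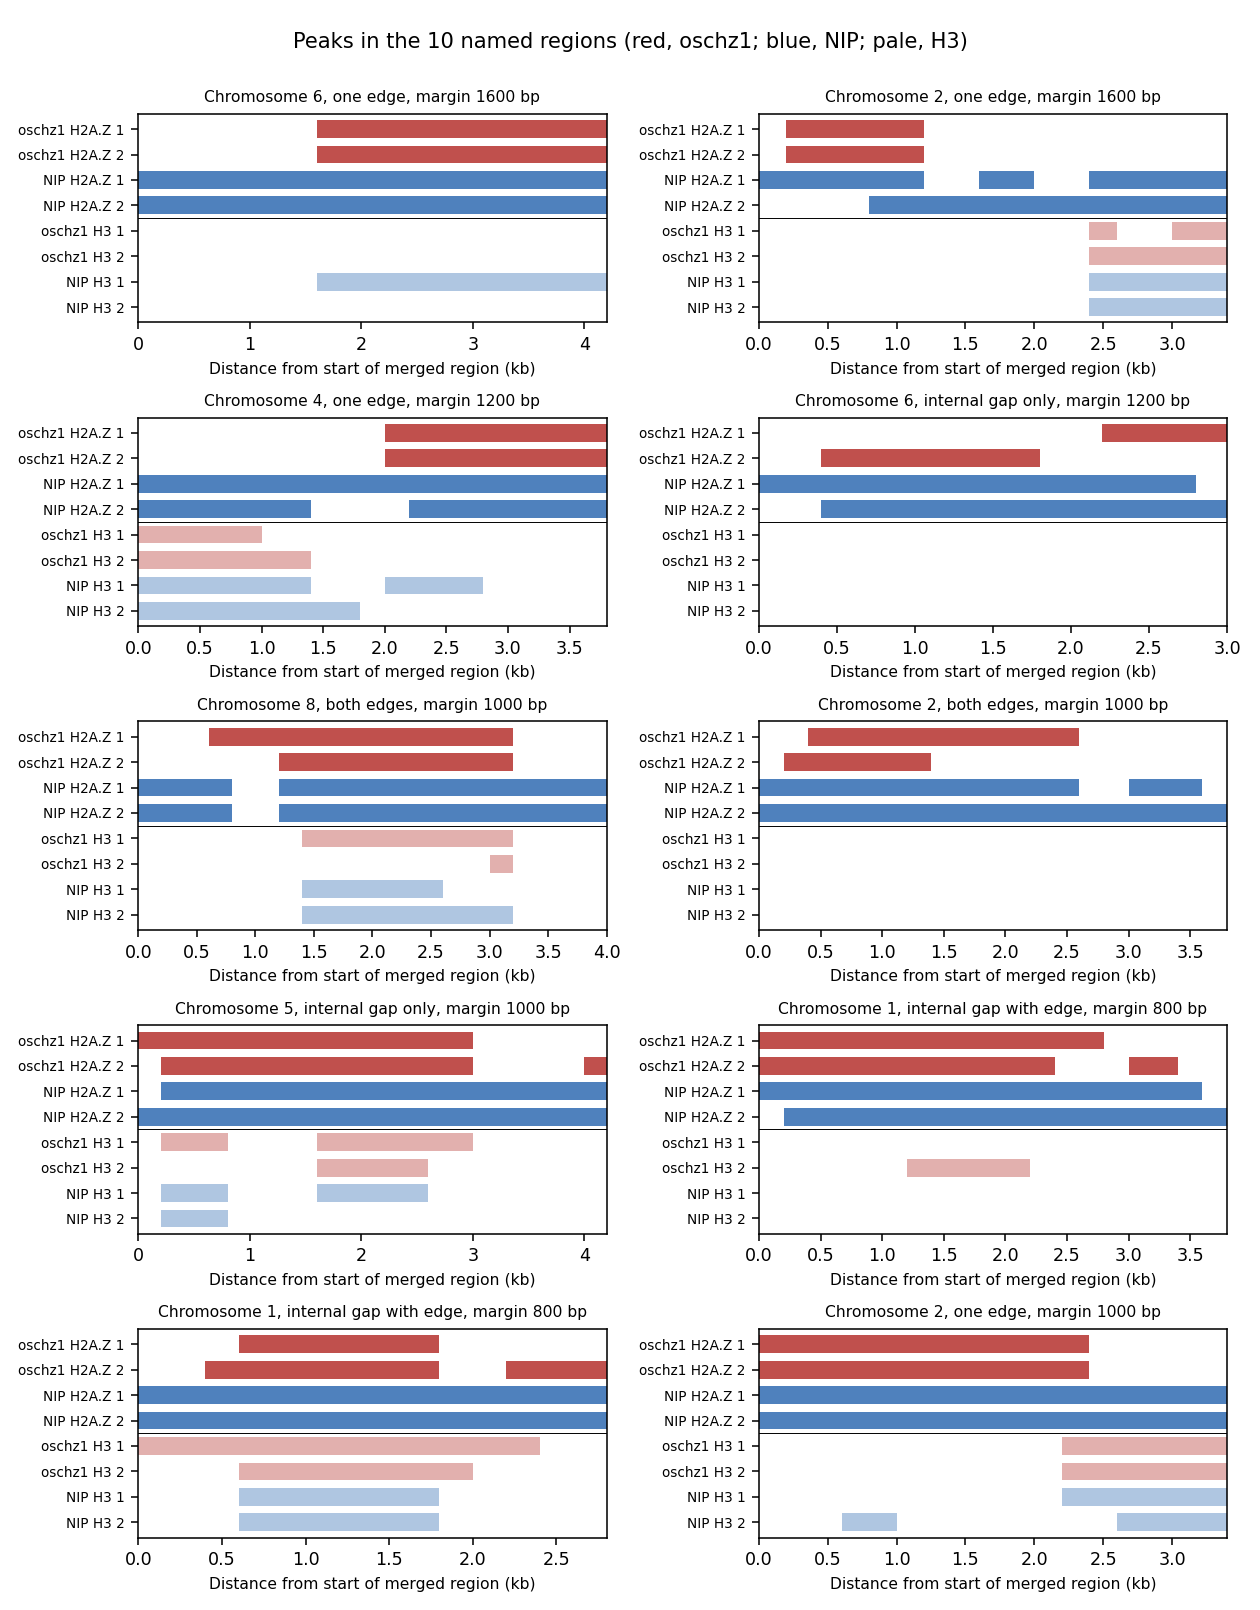
Peaks of each library (rows, oschz1 above NIP, H2A.Z above the line and H3 in pale colours below it) in the 10 regions described one by one, by distance in kb from the start of the merged region. The oschz1 H2A.Z bars stop short of the NIP bars at the left, the right or both ends, or leave an opening, as in the region on chromosome 5 with a gap of 1000 bp.

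Fewer reads lay in the shortened regions in oschz1, over fewer covered bases. They held 1.29% and 1.29% of the reads in peaks of the oschz1 libraries, against 1.54% and 1.57% in NIP. In RPM the 2 oschz1 values were both under the 2 NIP values in 434 regions and both over them in 3, where 26.4% and 18.5% of all 38211 regions did so. The median log2 difference was -0.33, against -0.02 over all regions. A count covers only the bases inside a library's own peaks, so a shorter peak also holds fewer reads, and the rule fixed the direction. With the quasi-likelihood test of edgeR over all regions, 20 of the 487 passed an adjusted p of 0.05 as lower, beside 0.0707% of all regions called lower and 0.717% called higher. The rule used this contrast and nothing is read from that count.

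Per covered base the reads were denser. Each library's density was taken over its own peaks, so the NIP value includes the bases without a peak in oschz1. Pooled over the shortened regions, H2A.Z density was 15.2 ± 0.114 RPM per kb in oschz1 and 13.2 ± 0.238 RPM per kb in NIP (SD, n = 2 libraries each). Over the other 37724 regions it was 15.0 ± 0.122 in oschz1 and 15.8 ± 0.342 in NIP. The extended regions among them had the opposite order, with 12.7 ± 0.116 in oschz1 and 14.8 ± 0.299 in NIP. In both sets the genotype with the shorter peaks was the denser, so this was not particular to the shortened regions. Both oschz1 libraries exceeded both NIP libraries in density in 355 of the 487 regions and lay below them in 7, with 12.3% and 29.6% of all regions beside them. In NIP the shortened regions had 83.7% and 83.3% of the density of the other regions, and in oschz1 101% and 101%.

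The fold over input differed less. It was 2.17 ± 0.00651 in oschz1 and 2.14 ± 0.00312 in NIP in the shortened regions, and 2.16 ± 0.0195 in oschz1 and 2.32 ± 0.00228 in NIP in the others (SD, n = 2). The median log2 difference in fold was 0.02 in the shortened regions and -0.09 over all. In fold the oschz1 values were both under the NIP values in 79 regions and both over them in 110, beside 26.5% and 11% of all regions. The input reads moved with the density. Within covered bases the input density, in input RPM per kb, was 14.9 ± 0.0515 in oschz1 and 14.1 ± 0.314 in NIP for the shortened regions, and 14.7 ± 0.149 in oschz1 and 15.5 ± 0.394 in NIP for the others. Their part in the difference in density was not tested.

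**Figure D4:**
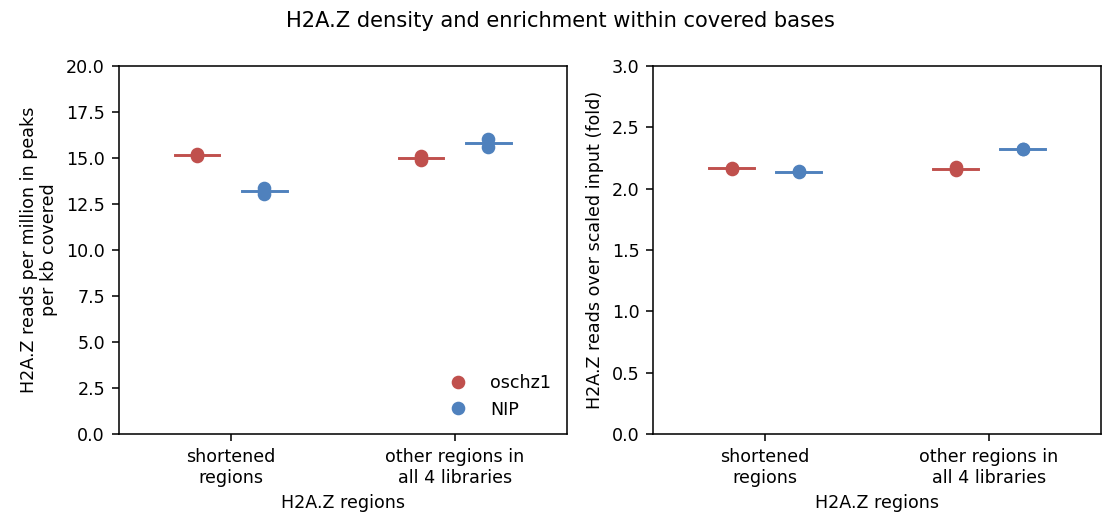
H2A.Z RPM per kb covered (left axis) and H2A.Z reads over scaled input (right axis), for the shortened regions and the other regions with a peak in all 4 libraries; points are libraries and bars are means of 2. In the shortened regions the oschz1 density of 15.2 stands above the NIP density of 13.2, while the folds of 2.17 and 2.14 lie side by side.

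By class, density in regions with loss at one edge was 14.9 ± 0.00204 RPM per kb in oschz1 and 12.6 ± 0.231 in NIP. With loss at both edges it was 17.0 ± 0.613 in oschz1 and 13.9 ± 0.317 in NIP. In regions with internal gaps alone it was 15.7 ± 0.0921 in oschz1 and 14.4 ± 0.237 in NIP. These gap regions were the ones in which the NIP density came nearest to that of the other regions, at 91.5% and 90.8%. Their fold over input was 2.20 ± 0.00780 in oschz1 and 2.26 ± 0.0228 in NIP, against 2.13 ± 0.0245 in oschz1 and 2.07 ± 0.0185 in NIP where one edge was lost.

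Some whole NIP peaks lay on lost bases, 17 in 1 NIP library and 11 in the other. Their fold over input ran between 1.23 and 15.9 in the first library and between 1.28 and 3.44 in the second. Their median fold was 1.76 and 1.70, against 2.12 and 2.15 for all peaks of these libraries. Most lost bases were instead parts of longer peaks, for which the tables give no separate read count.

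H3, a core histone of all nucleosomes, was then compared on the same bases. On the lost bases, H3 peaks covered 13.0% and 12.0% in the oschz1 libraries, against 9.07% and 9.25% in the NIP libraries. Both oschz1 values lay above both NIP values. The means were 12.5% ± 0.699 in oschz1 and 9.16% ± 0.127 in NIP (SD, n = 2 each), a difference of 3.37 percentage points. The two-sided exact permutation p was 0.33, the smallest that 2 against 2 libraries allow, so no such comparison could pass 0.05. On the kept bases, H3 coverage was 35.4% ± 2.70 in oschz1 and 34.8% ± 2.63 in NIP, a difference within the spread between libraries (exact permutation p = 0.667). The size of the difference depended on which H2A.Z peaks were used. It was 1.19 points with peaks at a false discovery rate of at most 1e-10, 0.533 points with peaks of a fold of at least 1.5, 0.887 points with close peaks joined, and -0.442 points at a margin of 800 bp. Leaving out any 1 H2A.Z library, with regions chosen anew, gave 1.13 to 2.15 points.

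Lost bases outside the shortened regions had the same order. In 2138 other regions with lost bases, 502.2 kb in all, H3 peaks covered 10.4% ± 1.44 in oschz1 and 7.41% ± 1.07 in NIP (SD, n = 2, exact permutation p = 0.33). Bases gained in the extended regions, covered in both oschz1 and neither NIP library, had the opposite order, with 11.2% ± 0.989 in oschz1 and 14.4% ± 0.237 in NIP (exact permutation p = 0.33). In both cases H3 coverage was the higher in the genotype without an H2A.Z peak, although no p could pass 0.05. These 2 sets were added after seeing the data. On kept bases of the extended regions the oschz1 mean was lower too, with 28.9% ± 2.44 in oschz1 and 31.6% ± 3.07 in NIP. Kept bases of the other regions had 37.8% ± 2.42 in oschz1 and 39.4% ± 2.71 in NIP. On both sets of kept bases the libraries of the genotypes overlapped. The order on gained bases was thus not particular to bases without an H2A.Z peak in NIP. Each H3 library was called against the same input as the H2A.Z library of its genotype and number. Peaks with identical coordinates had equal input counts in 100% of cases in those 4 pairs and in at most 3.60% in the other 12. The part of the shared input in these differences was not tested.

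**Figure D5:**
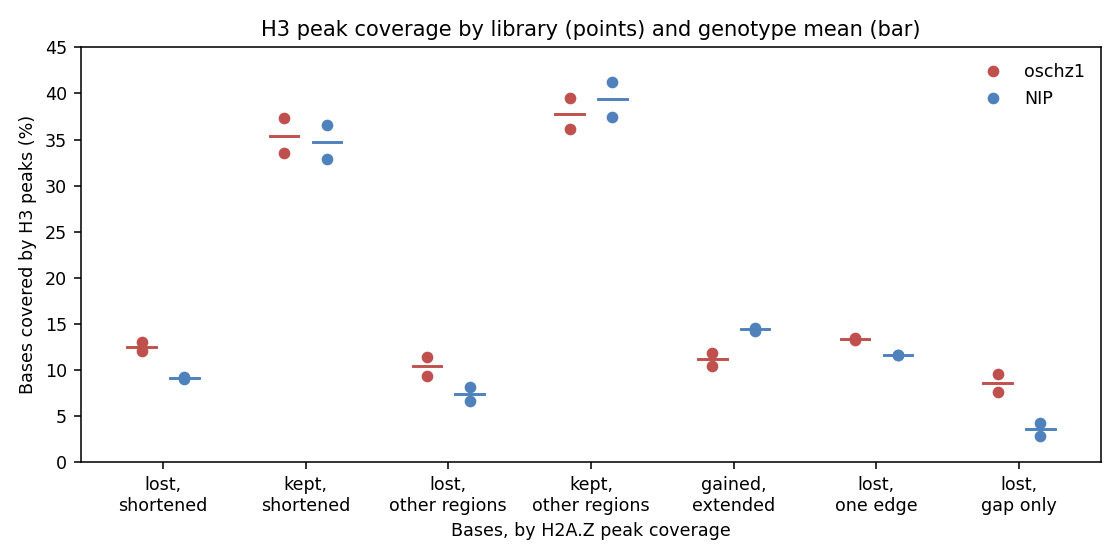
Percent of bases covered by H3 peaks (vertical axis) in each library (points, oschz1 left of NIP, with bars for the means of 2), for sets of bases defined by H2A.Z peaks (horizontal axis). On lost bases of shortened regions the oschz1 points at 13.0% and 12.0% stand above the NIP points at 9.07% and 9.25%, on gained bases of extended regions the order is the opposite, and on kept bases the points of the genotypes overlap.

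The difference was larger in gaps than at edges. On bases lost at one edge, H3 peaks covered 13.4% ± 0.0932 in oschz1 and 11.6% in both NIP libraries. On bases lost in internal gaps alone they covered 8.61% ± 1.35 in oschz1 and 3.59% ± 1.01 in NIP. In the 79 regions that both oschz1 libraries split, the gap and other lost bases had 11.3% and 11.9% in oschz1, against 2.38% and 2.98% in NIP. Each of these 3 comparisons had the smallest exact permutation p possible, 0.33. The kept bases of the same 79 regions had 38.6% ± 1.83 in oschz1 and 36.3% ± 4.48 in NIP. Few regions carried this. Of the 79, 11 and 11 had H3 on lost bases in the oschz1 libraries and 2 and 3 in the NIP libraries. In 7 both oschz1 libraries and neither NIP library had it, and in 0 the reverse. No share over all regions stands beside these counts, so they are a description only. These splits and classes were compared after their values were seen, and whether gaps and edges differed was not tested.

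Most lost bases had no H3 peak at all. Of the 455 regions with lost bases, 344 (75.6%) had no H3 peak on them in any of the 4 H3 libraries, and 20 had one in every library. In 24 regions (5.27%) the smaller oschz1 coverage of the lost bases by H3 exceeded the larger NIP coverage by at least 200 bp, where 2.97% of all 2593 regions with lost bases did. The opposite was found in 4 (0.879%), beside 0.964%. The 455 shortened regions held 222.6 kb of lost bases and the 2138 others 502.2 kb. A difference of 200 bp was therefore easier to reach in a shortened region, and the 2 shares are not like for like. Of the 24 regions, 15 were among the 299 with loss at one edge. Another 5 were among the 102 with a gap alone, and 4 among the 18 with a gap and an edge. All 4 with less H3 had loss at one edge, the largest class with 299 of the 455 regions.

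The next 3 regions were chosen after their values were seen. At chr1:34664201-34666800, H2A.Z covered 1400 and 1400 bp in oschz1, against 2000 and 2600 bp in NIP. On its 600 lost bases, up to position 34664800, H3 covered 600 and 600 bp in oschz1 and 0 and 0 bp in NIP. At chr8:6272201-6273000, H2A.Z covered 200 and 200 bp in oschz1 and 800 and 600 bp in NIP. H3 covered all 400 lost bases in both oschz1 libraries and none in either NIP library. The opposite case was chr2:16150001-16152800, where H2A.Z covered 800 and 800 bp in oschz1 and 2000 and 2600 bp in NIP. H3 covered 0 and 0 of its 1200 lost bases in oschz1 and 1200 and 1200 in NIP, as part of a separate stretch of H3 peaks without a counterpart in oschz1. On its kept side H3 covered 400 and 800 bp in oschz1 and 400 and 400 bp in NIP, in the H3 region chr2:16150001-16150800.

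Over whole regions, H3 covered 25.2% ± 2.03 in oschz1 and 23.9% ± 1.52 in NIP of the shortened regions (SD, n = 2, exact permutation p = 0.667). Over all 38211 regions it covered 29.8% ± 1.96 in oschz1 and 30.9% ± 2.18 in NIP. H3 coverage was shorter by at least 400 bp in both oschz1 libraries in 14 shortened regions (2.87%), against 4.52% of all regions, and longer by as much in 35 (7.19%), against 4.41%. This contrast was the other way round at a margin of 800 bp, with 4 regions shorter and 0 longer of 56. Without NIP H3 replicate 2 the counts were nearly equal, with 57 shorter (11.7%) and 58 longer (11.9%). All regions then had 11.9% shorter and 8.57% longer. All 4 H3 libraries had a peak in 155 shortened regions (31.8%) and none had one in 110 (22.6%), beside 28.6% and 22.5% of all regions. Shortened regions were wider, with a median width of 2200 bp against 1400 bp for the others. A difference of 400 bp or an overlap with an H3 peak was therefore easier to reach in them. The shares in this paragraph are not like for like.

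H3 reads were tested in the 25178 merged H3 regions with a peak in all 4 H3 libraries, of which 153 overlapped 144 of the shortened H2A.Z regions. With edgeR, 0 of the 153 passed an adjusted p of 0.05 as lower and 0 as higher, where the share over all 25178 was 0% in either direction. At an unadjusted p under 0.05 there were 0 lower and 13 higher, beside 2.02% lower and 6.12% higher over all. The split depended on scaling. With TMM factors there were 1 lower and 8 higher, beside 3.33% and 4.51% over all. In limma on the ratio to input there were 3 lower and 2 higher, beside 2.59% and 2.97%. The median log2 difference was 0.07 at the shortened regions and 0.06 over all H3 regions. DESeq2 called 0 lower and 1 higher of the 153, beside 0.282% and 0.389% of all H3 regions, a share near the background.

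That 1 H3 region lay at chr2:1799801-1800800 and was singled out after its values were seen. H3 reads were 17.6 and 21.7 RPM in oschz1 and 4.51 and 6.11 RPM in NIP. H3 peaks covered 1000 and 1000 bp of it in oschz1, against 200 and 200 bp in NIP. A count covers only bases inside a library's own peaks, so the shorter H3 peaks in NIP also hold fewer reads. The log2 difference was 1.89 ± 0.25 (SE) in edgeR with an adjusted p of 0.239, and 1.83 in DESeq2 with an adjusted p of 7.97e-05. The shortened H2A.Z region around it, chr2:1799201-1801800, had 2000 and 2000 bp in oschz1 and 2400 and 2400 bp in NIP. Its gap, chr2:1800801-1801200, began at the base after the H3 region ended, so this H3 region stood beside the gap and not in it.

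Shortened regions were found on all 12 chromosomes, from 0.934% of the regions of chromosome 12 to 1.68% of those of chromosome 2. Another 1 lay on the unplaced sequence Sy. Their share grew with length and levelled off from 3000 bp on. By mean covered length in NIP, 0.273% of regions from 600 to below 1000 bp were shortened and 1.30% from 1000 to below 2000 bp. The share was 2.51% from 2000 to below 3000 bp, 2.93% from 3000 to below 4000 bp and 2.94% from 4000 bp on. Extended regions made up 2.86%, 4.02%, 5.78%, 6.14% and 9.17% of the same groups of regions, a rise that did not level off. Short regions have little length to lose, since the rule asks for 400 bp. Within 1 Mb of a chromosome's first base or last peak lay 47 of 486 regions (9.67%), against 7.29% of the others and 8.69% of the extended regions. The nearest other H2A.Z region was a median of 1000 bp away, against 1200 bp for the others and 1000 bp for the extended regions, so this was not particular to shortening. Where one edge was lost, the next region was a median of 2400 bp away on the lost side and 2200 bp on the kept side. Of the shortened regions, 26 had another within 10 kb, with no share for other regions beside that count.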

How the data were processed

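H2A.Z, H3 and input DNA were sequenced by the authors from oschz1 and NIP seedlings. Per the study's methods, the authors mapped reads with Bowtie2 to the MSU rice genome, removed reads with a mapping quality under 20 and potential duplicates with SAMtools, and called H2A.Z peaks against input with SICER (window 200 bp, gap 200 bp, FDR 0.05). For H3 the caller is not given in the sources used here, but the tables have the same layout. Peaks were called per library. Each deposited table gives a ChIP read count and an input read count per peak, a p-value and a q-value (FDR) and the fold of ChIP over input. The counts are not normalised and cover only bases inside a library's own peaks. The deposited fold is the ratio of the 2 counts divided by 1 constant per library, recovered here from the fold column. Inputs were used only through these counts.

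Peaks were merged and sorted into lost, kept and gained bases with Python 3.11.15 and pandas 2.3.3. Counts were tested with edgeR 4.0.16 (quasi-likelihood, library size from reads in peaks, Benjamini-Hochberg adjusted p of at most 0.05) in R 4.3.3, with DESeq2 1.42.0 and limma 3.58.1 as alternatives. Means of 2 libraries were compared by two-sided exact permutation. Methods were tested on simulated data. The regions, the comparisons and the list of regions described one by one were chosen with earlier results of these data known. That list holds the 4 largest margins, the 2 largest per class of loss and the 3 largest with H3 on lost bases in all 4 H3 libraries. Other regions given by position were chosen after their values were seen. Alternatives were other margins, stricter peaks, joined peaks, other scaling and leaving out each library. No annotation of the build was used, so gene names, gene lists and sequences are not reported. Positions are on the MSU genome and count from 1.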

Additional observations from a re-analysis of the deposited data

How the results depend on the processing

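With 2 libraries per group, every value of coverage rests on few measurements, and reads outside peaks were not analysed here, so a lost base means only that no peak was called there. The number of shortened regions was 1936 at a margin of 200 bp and 56 at 800 bp, and 1493 to 1750 when 1 library was left out, since fewer libraries then had to differ. The share with loss at one edge was 70.8% and 71.4% at those margins, 50.5% with bases lost from at least 1 NIP library, and 58.9% to 61.1% without single libraries. The difference in H3 coverage of lost bases changed sign at a margin of 800 bp, at -0.442 points, kept its sign in the other 14 settings, and was 1.13 to 3.86 points without single libraries; the cause was not tested. The small difference on kept bases was -0.307 points at a margin of 200 bp, -0.605 with peaks joined, and -1.26 to 2.56 without single libraries. Regions whose H3 was also shorter numbered 76 at 200 bp (97 longer), 4 at 800 bp (0 longer), beside 4.52% shorter and 4.41% longer of all regions. They numbered 5 with H3 peaks at a false discovery rate of 1e-10 (17 longer), beside 1.88% and 3.0%. Without single libraries they numbered 37 to 75 (58 to 107 longer), beside 4.34% to 11.9% and 4.24% to 10.8%. Merging touching peaks, chosen after seeing the data, gave 491 shortened regions. H3 regions called higher numbered 1 with DESeq2, beside 0.389% of all. H2A.Z regions called lower in reads, a direction the rule fixes, numbered 70 with DESeq2 (0.301% of all regions). They numbered 11 to 12 without single libraries (0.0471% to 0.120%). In limma, on the ratio to input, 0 were called lower (0%). The rule does not fix the direction of that ratio. At an unadjusted p under 0.05 in limma, 8 of the 487 were lower and 22 higher, beside 1776 and 662 of all 38211. The median log2 difference in limma was 0.02 in the shortened regions and -0.09 over all. Replicate numbers did not pair the libraries (correlation of deviations -0.0115 for H2A.Z and -0.000213 for H3), and the replicate block gave 9 H2A.Z regions lower (0.034% of all), and 0 H3 regions lower and 0 higher.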
